A study of Mus musculus with 12 samples.

Results

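The genes described here are the matrix metalloproteinases (Mmp), the ADAM and ADAMTS proteases and the tissue inhibitors of metalloproteinases (Timp) of mouse cardiac fibroblasts, as read by RNA-Seq. They were taken by name, as every protein-coding gene of the deposited count table whose symbol is Mmp, Timp, Adam or Adamts followed by a number and at most 1 letter. That rule gave 79 of 35275 genes, with 33 Adam, 19 Adamts, 23 Mmp and 4 Timp genes. Of these, 49 passed the filter on low counts (16 Adam, 13 Adamts, 17 Mmp and 3 Timp genes) among the 15150 genes that were tested.

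The cells were fibroblasts of passage 2 from the hearts of 12-week-old Smad7 fl/fl mice on the C57BL/6 background, which carry a floxed gene for the inhibitory Smad7. All cells received an adenovirus at a multiplicity of infection of 100 for 48 hours. In Smad7-KO cells the virus expressed Cre recombinase, and in control cells it was a control virus, which the sample labels describe as expressing GFP and the study's methods as empty. Each was left unstimulated or given 10 ng/ml TGF-β1, for 2 hours by one field of the labels and 4 hours by another, which makes 4 groups of 3 libraries (control and Smad7-KO, each unstimulated or with TGF-β1). The comparisons ask what loss of Smad7 and what TGF-β1 do to these genes, and whether one depends on the other. The labels call the 3 libraries of a group independent, without saying from how many hearts they came.

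Metalloproteinases are zinc-dependent enzymes that cut collagens, proteoglycans and other proteins of the extracellular matrix, and most are made as inactive precursors. ADAM proteases sit in the cell membrane and mostly release the outer parts of other membrane proteins, such as growth factor precursors, while ADAMTS proteases are secreted and act on proteoglycans, procollagens and fibrillin. Timp proteins bind and block the active enzymes. In the healing heart, fibroblasts and macrophages are known sources of these enzymes, and TGF-β is known to lower some of them and to raise inhibitors.

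Libraries held between 19056916 and 25371321 counted reads. Smad7 itself was at 71.4, 74.6 and 77.2 CPM (counts scaled to library size, with TMM factors) in control libraries without stimulation and 145, 150 and 142 CPM with TGF-β1. In Smad7-KO libraries it was at 28.6, 28.4 and 31.1 CPM without and 80.8, 70.0 and 79.5 CPM with TGF-β1. Every Smad7-KO library was thus below every control library of the same stimulation, but Smad7 transcripts remained in all of them, and with TGF-β1 they reached the level of unstimulated control libraries. The loxP sites enclose the promoter and exon 1 of Smad7, and a count over the whole gene does not separate reads of the deleted stretch from the rest, so the completeness of the deletion was not measured here. The spread between replicates beyond counting noise (biological coefficient of variation) was 0.332 in control libraries without and 0.137 with TGF-β1, and 0.0528 and 0.0994 in Smad7-KO libraries, with unstimulated control replicates 2 and 3 farthest apart. Fibroblast markers summed to between 14209 and 23160 CPM per library, but macrophage markers summed to between 16577 and 27086 CPM, so the cultures held abundant macrophage transcripts as well. In bulk RNA, fewer cells of a type and less RNA per cell cannot be told apart.

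By level per length, the inhibitors led. Over the 12 libraries, Timp2 averaged 564 FPKM (a count scaled by gene length and library total, from 496 to 624), Timp1 296 FPKM (from 200.2 to 505), Mmp3 276 FPKM (from 174 to 398) and Timp3 243 FPKM (from 44.6 to 352). Timp2 was above Timp1 and Mmp3 on average, but the ranges of Timp1, Mmp3 and Timp3 overlapped, so that their order is not set beyond the spread between libraries. Timp2 supplied 47.3% to 54.5% of the summed Timp FPKM and Mmp3, the stromelysin that cleaves proteoglycans and activates other precursors, supplied 37.0% to 57.6% of the summed Mmp FPKM. Next came Mmp14, the membrane-bound activator of the Mmp2 precursor, at a mean of 165 FPKM and Adam9 at 130 FPKM. The leading ADAMTS genes were Adamts5 at 58.6 FPKM, Adamts1 at 32.7 FPKM and Adamts2 at 29.3 FPKM. In all, 19 genes had a mean of 10 FPKM or more and 11 had between 1 and 10 FPKM.

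**Figure D1:**
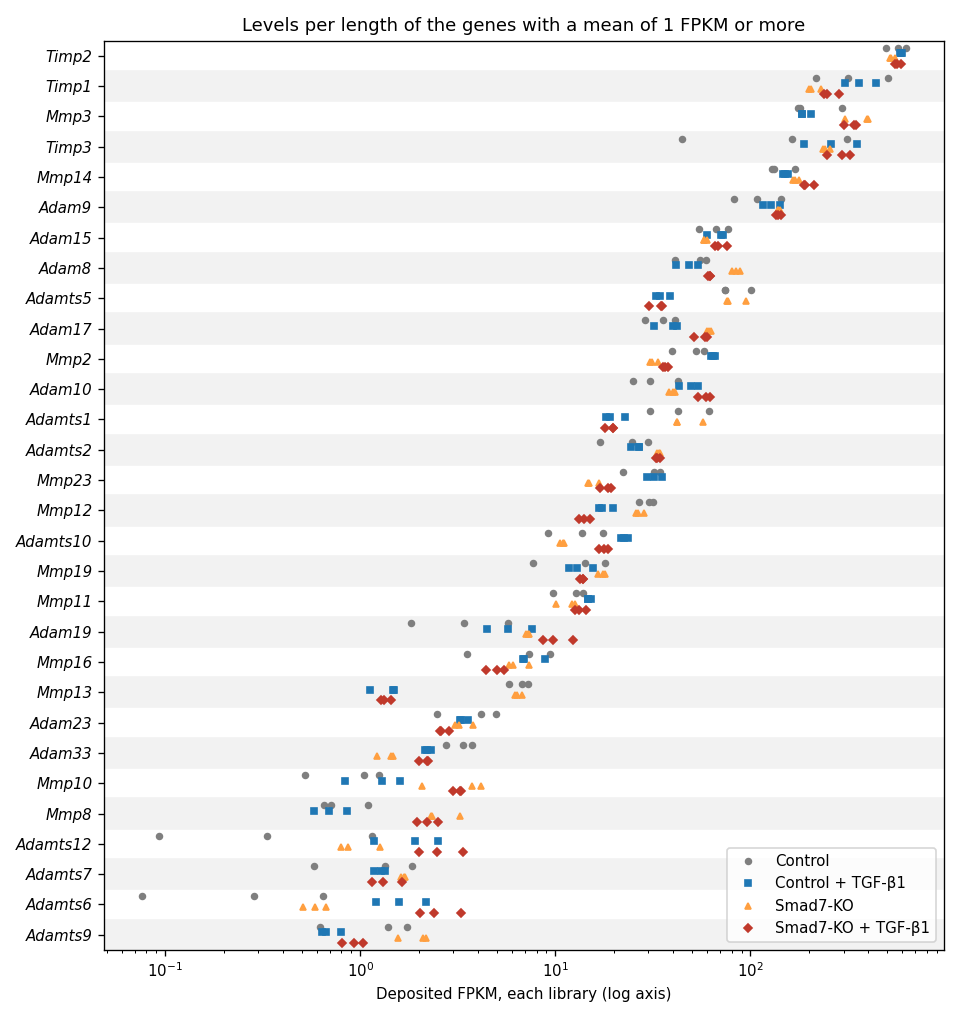
Deposited FPKM (log axis) of the 30 genes with a mean of 1 FPKM or more, 1 point for each library, in order of the mean, with groups by colour and marker. Timp2 is at the top (496 to 624 FPKM), and unstimulated control points spread most widely for Timp3, Adamts12 and Adamts6.

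The summed Timp FPKM ran from 1046 to 1156 in control libraries without stimulation and 1212 to 1251 with TGF-β1, and from 963 to 1006 and 1085 to 1133 in Smad7-KO libraries. The summed Mmp FPKM ran from 466 to 599, 485 to 514, 594 to 701 and 625 to 649 in the same order. The Timp sum was 1.39 to 2.58 times the Mmp sum in every library, as a ratio of transcripts and not of proteins.

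The other 30 genes (17 Adam, 6 Adamts, 6 Mmp and 1 Timp) did not pass the filter. None of them had more than 14 reads in any library, and 6 had no read at all. They included Timp4, the inhibitor known from heart muscle, with at most 7 reads in a library, and the collagenase genes Mmp1a with at most 4 and Mmp1b with at most 7. They were not tested in any comparison described below. Adam20 and Adam21 did not overlap between the unstimulated groups, at 0 CPM in control against 0.0434 to 0.129 CPM in Smad7-KO libraries and 0.0422 to 0.134 CPM against 0.149 to 0.260 CPM, with at most 3 and 6 reads in a library. Adam18 and Adamts16 did not overlap between stimulated and unstimulated Smad7-KO libraries, being higher with TGF-β1. These are a few reads, with 0 against 1 to 3 for Adam18 and at most 5 in any library for Adamts16, too few to set a direction.

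Loss of Smad7 in unstimulated cells was accompanied by higher Mmp3, Mmp8, Mmp10, Mmp17, Adam8, Adam17, Adam19, Adam22 and Adamts2 and by lower Mmp2, Mmp23, Adam5 and Adam33. These 13 of the 49 genes tested (26.5%, with 9 higher and 4 lower) passed an adjusted p of 0.05 in edgeR's quasi-likelihood test, where 25.8% of all tested genes did (12.1% higher and 13.7% lower). The share of called genes was therefore near the background, and the median log2 fold change was 0.15 over the 49 genes and -0.02 over all tested genes. In TGF-β1-stimulated cells 9 of 49 genes were called (18.4%, with 6 higher and 3 lower), against 13% of all tested genes (5.72% higher and 7.23% lower), with medians of 0.07 and -0.02. The 2 comparisons share no library, but they come from one fit with a shared estimate of spread. All 9 genes called with TGF-β1 were also called without it in the same direction (100% of 9 and 69.2% of 13). The matching share over all tested genes is not given here.

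The counts depended on single libraries. They are given for these genes alone, without the share of all tested genes called in the same setting. Without unstimulated control replicate 3, 24 genes were called in unstimulated cells (18 higher and 6 lower), and without any one of the 3 unstimulated Smad7-KO libraries 8 were called (4 higher and 4 lower). In TGF-β1-stimulated cells, 20 genes were called without unstimulated control replicate 2 and 14 without replicate 3, which enter that comparison through the shared estimate of spread. Only 5 were called without TGF-β1 control replicate 2 or 3, and 4 without TGF-β1 Smad7-KO replicate 2. Removing each library's trend on gene length turned the split in unstimulated cells from 9 higher and 4 lower to 7 higher and 7 lower. When edgeR was fitted to the unstimulated libraries alone, only the calls of Mmp2, Mmp8, Mmp10, Adam8, Adam17 and Adam33 were kept.

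**Figure D2:**
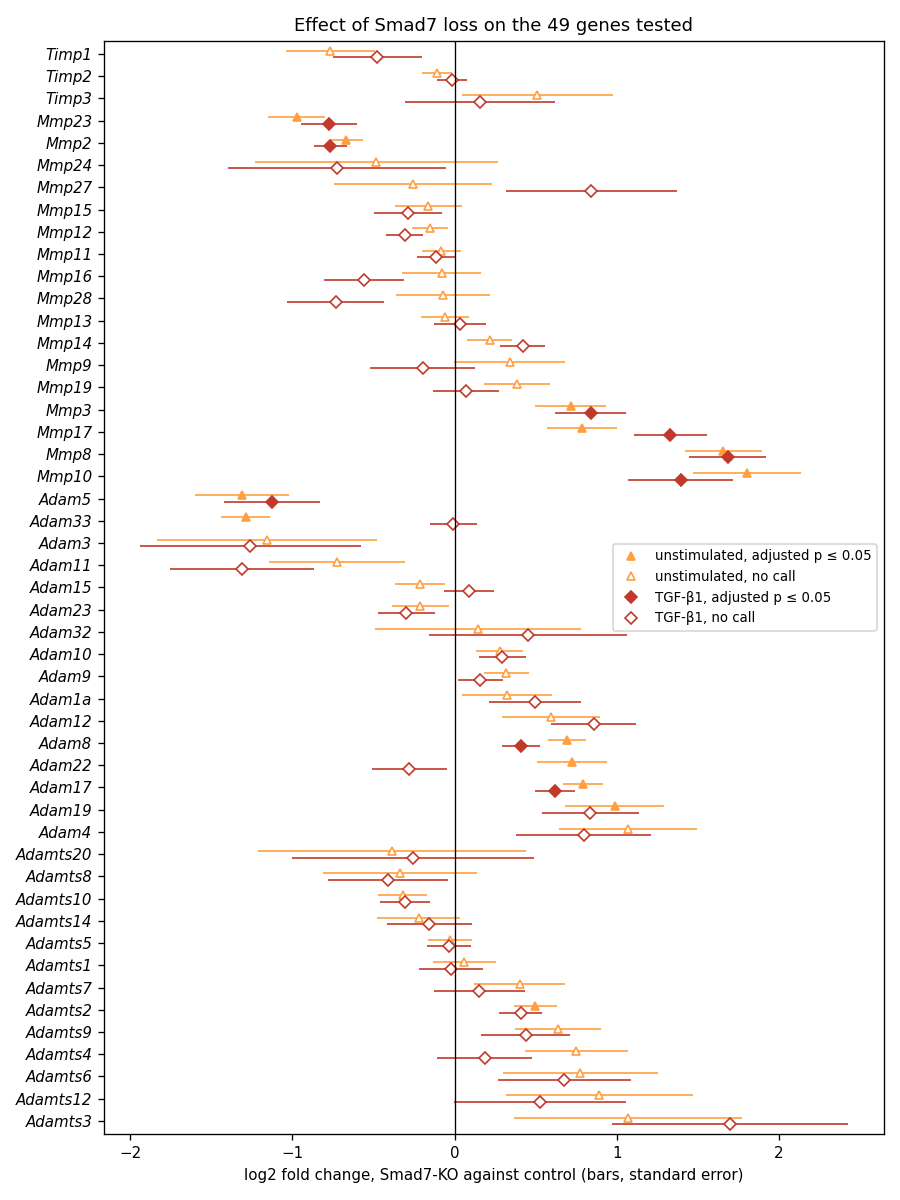
Log2 fold change of Smad7-KO against control for the 49 genes tested, by family, in unstimulated and TGF-β1-stimulated cells, with bars for the standard error and filled markers for genes past the threshold. Filled markers stand at the ends of the Mmp and Adam blocks, from Adam5 (-1.31) to Mmp10 (1.80) in unstimulated cells, and no Timp marker is filled.

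Among the collagenases and stromelysins, 3 neighbouring genes rose in Smad7-KO cells. Mmp3 was at 316, 575 and 301 CPM in unstimulated control and 545, 703 and 711 CPM in unstimulated Smad7-KO libraries. The groups overlapped, because control replicate 2 lay above the lowest Smad7-KO library. The log2 fold change was 0.72 (SE 0.22, adjusted p = 0.036), and it was 1.09 without control replicate 2. With TGF-β1, Mmp3 was at 323, 327 and 362 CPM in control and 549, 625 and 639 CPM in Smad7-KO libraries, without overlap (log2 fold change 0.84, SE 0.22, adjusted p = 0.0269). The call was not firm, as it was lost in 7 of 12 omissions of a library in unstimulated and 6 of 12 in stimulated cells, with adjusted p values of up to 0.155 and 0.101 over the alternatives.

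Mmp8, known as the neutrophil collagenase, was scarce but clearly apart. It was at 1.57, 1.89 and 2.57 CPM in unstimulated control and 5.60, 7.85 and 5.64 CPM in unstimulated Smad7-KO libraries (log2 fold change 1.66, SE 0.24, adjusted p = 0.00101). In stimulated cells it was at 1.66, 2.07 and 1.41 CPM in control and 4.87, 6.29 and 5.47 CPM in Smad7-KO libraries (log2 fold change 1.68, SE 0.24, adjusted p = 0.00117). The groups did not overlap under either stimulation, and both calls held in every alternative that was run. Mmp10, a second stromelysin, was at 1.75, 0.971 and 2.07 CPM in unstimulated control against 3.52, 6.35 and 7.07 CPM in unstimulated Smad7-KO libraries (log2 fold change 1.80, SE 0.33, adjusted p = 0.00402). With TGF-β1 it was at 1.42, 2.73 and 2.19 CPM against 5.23, 5.70 and 5.71 CPM (log2 fold change 1.39, SE 0.32, adjusted p = 0.0159, lost in 3 of 12 omissions). No Smad7-KO library was as low as any control library of its stimulation.

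The other tested genes of these classes were not called. Mmp13, the main interstitial collagenase of rodents, differed between unstimulated Smad7-KO and control cells by a log2 fold change of -0.06 (95% interval -0.38 to 0.26), and Mmp12, the macrophage elastase, by -0.15 (-0.40 to 0.09). Mmp11 differed by -0.08 (-0.35 to 0.18).

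Of the gelatinases, Mmp2 (chr8:92827328-92853417) fell. It was at 156, 130 and 169 CPM in unstimulated control and 94.0, 100.8 and 92.0 CPM in unstimulated Smad7-KO libraries, and at 187, 198 and 192 CPM against 110, 117 and 113 CPM with TGF-β1. Every Smad7-KO library was lower than every control library. The log2 fold changes were -0.67 (SE 0.10, adjusted p = 0.00164) and -0.77 (SE 0.10, adjusted p = 0.000882), and both calls held in every alternative that was run. Mmp9 stayed between 0.538 and 1.59 CPM in all 12 libraries and was not called, at a log2 fold change of 0.34 (95% interval -0.41 to 1.09) in unstimulated cells.

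The membrane-type enzymes differed among themselves. Mmp17, which is held by a lipid anchor, rose from 1.84, 1.20 and 1.60 CPM in unstimulated control to 2.97, 2.45 and 2.65 CPM in unstimulated Smad7-KO libraries (log2 fold change 0.79, adjusted p = 0.0255, lost in 4 of 12 omissions). With TGF-β1 it was at 1.17, 1.02 and 0.875 CPM in control and 2.71, 2.31 and 2.74 CPM in Smad7-KO libraries, a log2 fold change of 1.33 (SE 0.22, adjusted p = 0.00308) that was called in every alternative. Mmp14 was not called in either comparison. In unstimulated cells DESeq2 on all libraries gave a log2 fold change of 0.22 (adjusted p = 0.259). By edgeR Mmp14 was called at 0.42 (adjusted p = 0.00426) without unstimulated control replicate 2. It was not called without replicate 3, at 0.13 (adjusted p = 0.451). With TGF-β1 it was at 375, 388 and 401 CPM in control and 556, 503 and 499 CPM in Smad7-KO libraries, so the groups did not overlap, at a log2 fold change of 0.42 (SE 0.14, adjusted p = 0.0696), and DESeq2 on all libraries gave an adjusted p of 0.0228. Mmp15, Mmp16 and Mmp24 were not called, with log2 fold changes from -0.48 to -0.08 in unstimulated cells.

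Mmp23, an enzyme that is first anchored in the membrane and then released, fell. It was at 45.1, 53.4 and 30.4 CPM in unstimulated control and 20.8, 23.7 and 21.1 CPM in unstimulated Smad7-KO libraries (log2 fold change -0.97, SE 0.17, adjusted p = 0.00362). The stimulated groups were at 41.5, 50.4 and 45.5 CPM and 27.1, 24.9 and 28.2 CPM (log2 fold change -0.77, SE 0.17, adjusted p = 0.0138, lost in 3 of 12 omissions). Again no library of one group reached the other. Mmp19 and Mmp28 were not called, at log2 fold changes of 0.38 (95% interval -0.06 to 0.83) and -0.07 (-0.71 to 0.57) in unstimulated cells.

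No Timp gene passed the threshold with all libraries. Timp2 was at 2080, 2003 and 2223 CPM in unstimulated control and 2013, 1939 and 1908 CPM in unstimulated Smad7-KO libraries, a log2 fold change of -0.11 with a 95% interval from -0.31 to 0.10, and its interval with TGF-β1 ran from -0.22 to 0.19. Timp1 was at 274, 486 and 184 CPM in unstimulated control and 175, 202 and 179 CPM in unstimulated Smad7-KO libraries, a log2 fold change of -0.76 (95% interval -1.37 to -0.16, adjusted p = 0.0594) that was -0.36 with the length trend removed, and DESeq2 on all libraries gave an adjusted p of 0.0298. Timp3, the matrix-bound inhibitor that also blocks Adam17, was at 755, 229 and 1423 CPM in unstimulated control and 1201, 1107 and 1125 CPM in unstimulated Smad7-KO libraries, and its interval ran from -0.50 to 1.53. The control libraries alone covered the whole range of the Smad7-KO libraries. Single control libraries set both values. Without unstimulated control replicate 3, Timp1 was called at -1.03 (adjusted p = 0.00197) and Timp3 at 1.22 (adjusted p = 0.0203), while without replicate 2 they were -0.30 and 0.07 and were not called. With TGF-β1, Timp1 was called at -0.46 (adjusted p = 0.0426) without unstimulated control replicate 2. A PCR array of the study gave, among others, higher Mmp2, Mmp3, Timp1 and Timp2 and lower Mmp1a in fibroblasts lacking Smad7. Here Mmp3 was higher and Mmp2 lower in Smad7-KO cells. Timp1 and Timp2 were not called with all libraries, and Mmp1a was not tested. From a PCR array with an ErbB1/2 inhibitor, the study proposes that Smad7 restrains Adamts1, Adamts2, Mmp12 and Mmp14, among others, partly through ErbB1/2. Among these genes, Adamts2 alone was called here between Smad7-KO and control, in unstimulated cells.

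Adam17 (chr12:21323509-21373632), the sheddase that releases tumour necrosis factor and several ErbB ligands from the cell surface, rose. Its libraries were at 156, 140 and 176 CPM in unstimulated control and 266, 273 and 278 CPM in unstimulated Smad7-KO cells, and at 185, 141 and 177 CPM against 264, 274 and 235 CPM with TGF-β1. All 6 Smad7-KO libraries lay above all 6 control libraries. The log2 fold changes were 0.79 (SE 0.12, adjusted p = 0.00177) and 0.62 (SE 0.12, adjusted p = 0.00804), and every alternative kept both calls. Adam17 overlaps Iah1 on the opposite strand (57592 and 8039 reads over the 12 libraries), and whether the counting used strand is not given in the sources used here.

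Adam8, a protease known mainly from leukocytes, was at 198, 163 and 208 CPM in unstimulated control and 293, 306 and 322 CPM in unstimulated Smad7-KO libraries (log2 fold change 0.69, SE 0.12, adjusted p = 0.00268). With TGF-β1 the levels were 194, 151 and 175 CPM and 230, 226 and 233 CPM (log2 fold change 0.41, SE 0.12, adjusted p = 0.0421, lost in 9 of 12 omissions). Adam19, or meltrin beta, was at 21.2, 12.6 and 35.0 CPM in unstimulated control and 46.3, 44.5 and 45.9 CPM in unstimulated Smad7-KO libraries (log2 fold change 0.99, SE 0.30, adjusted p = 0.0372, lost in 7 of 12 omissions). Adam22, which lacks protease activity, was at 5.69, 3.77 and 6.20 CPM against 9.71, 7.98 and 8.33 CPM (log2 fold change 0.72, SE 0.22, adjusted p = 0.0342, lost in 5 of 12 omissions). Adam19 and Adam22 were not called in TGF-β1-stimulated cells, at 0.84 (adjusted p = 0.0897) and -0.28 (adjusted p = 0.433).

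Adam5, which is known from testis, was scarce and lower in Smad7-KO cells, at 1.39, 1.77 and 1.69 CPM against 0.694, 0.687 and 0.564 CPM unstimulated (log2 fold change -1.31, SE 0.29, adjusted p = 0.00947) and 1.21, 1.10 and 1.12 CPM against 0.718, 0.362 and 0.472 CPM with TGF-β1 (log2 fold change -1.12, SE 0.30, adjusted p = 0.0286, lost in 5 of 12 omissions). The other well expressed sheddases were not called. In unstimulated cells Adam9 differed by 0.32 (95% interval 0.01 to 0.63, adjusted p = 0.104), Adam10 by 0.28 (-0.04 to 0.60, adjusted p = 0.159) and Adam15 by -0.21 (-0.55 to 0.12, adjusted p = 0.296).

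Of 13 ADAMTS genes tested, Adamts2 was called in unstimulated cells and none in TGF-β1-stimulated cells. The share in unstimulated cells was 7.69%, against 25.8% of all tested genes. With TGF-β1, 13% of all tested genes were called. Adamts2 removes the amino-terminal propeptide of fibrillar procollagens. It was at 175, 135 and 207 CPM in unstimulated control and 247, 244 and 240 CPM in unstimulated Smad7-KO libraries, all above the control libraries (log2 fold change 0.50, SE 0.13, adjusted p = 0.0217). With the length trend removed the difference was 0.10, and with TGF-β1 it was 0.41 (adjusted p = 0.065). The proteoglycan-cleaving Adamts1 and Adamts5 differed by 0.06 (95% interval -0.36 to 0.49) and -0.03 (-0.32 to 0.27) in unstimulated cells, and by -0.02 (-0.45 to 0.40) and -0.03 (-0.33 to 0.26) with TGF-β1.

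**Figure D3:**
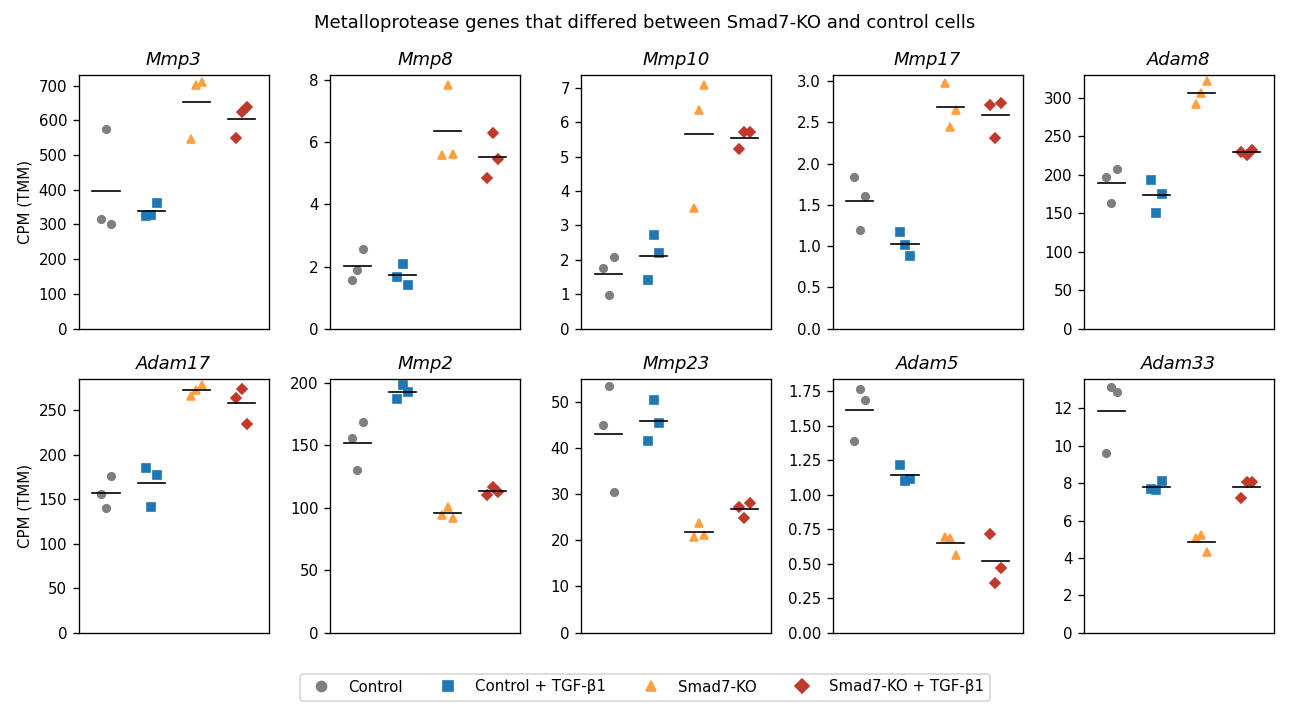
CPM of the 9 genes called in both Smad7-KO comparisons and of Adam33, 1 point for each library, a bar for the group mean and an axis from 0. Adam17 and Mmp8 lie higher and Mmp2 and Mmp23 lower in all 6 Smad7-KO libraries than in the 6 control libraries, while a control library of Mmp3 lies among the Smad7-KO libraries.

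Other cells' markers moved with the same contrast. Of all tested genes, 25.8% were called in unstimulated cells (12.1% higher and 13.7% lower). With TGF-β1 the share was 13% (5.72% higher and 7.23% lower). Of 13 tested endothelial markers 9 were lower and 1 higher in Smad7-KO cells under both stimulations, and the summed level was 361 to 382 CPM in control libraries without and 387 to 435 CPM with TGF-β1, against 81.7 to 95.7 CPM and 92.5 to 113 CPM in Smad7-KO libraries, with Cldn5 at 0 in all 3 stimulated ones. Of 12 macrophage markers 5 were higher and none lower in each comparison (41.7%). Their sums were 16577 to 27086 CPM in unstimulated control and 23796 to 26118 CPM in unstimulated Smad7-KO libraries, which overlapped. With TGF-β1 they were 16606 to 19414 CPM in control and 23010 to 26193 CPM in Smad7-KO libraries, which did not overlap. Of 12 fibroblast markers 2 were higher and 3 lower in each comparison. Of 6 mesothelial markers 4 were lower in unstimulated and 2 in stimulated cells, and of 6 smooth muscle and 6 cardiomyocyte markers 2 each were lower in unstimulated and none in stimulated cells. In unstimulated control replicate 2, macrophage markers were highest (27086 CPM) and fibroblast markers lowest (14209 CPM). The part of these shifts in the differences above was not tested.

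Gene length also moved with this contrast. Among called genes 13.4% were higher in Smad7-KO cells among the 5050 shortest of the tested genes and 79.2% among the 5050 longest (19.7% and 63.4% with TGF-β1). The median length was 4121 bases for the 49 genes and 3007 bases for all tested genes. Of the 49 genes, 27 are among the longest 5050, and 5 of them were called in unstimulated cells, all 5 higher. The shortest 5050 hold 5 of the 49, with 3 called and 2 of those higher. Mmp3 (1798 bases), which rose, and Mmp23 (1434 bases), which fell, are both among the shortest 5050, where the median log2 fold change was -0.39. With the length trend removed, 11 of the 13 unstimulated calls were kept, Adamts2 and Adam22 were lost, and the additional calls included Adamts5 and Adamts10, both lower, at -0.52 and -0.45. All 9 calls in stimulated cells were kept among 17. The share of all tested genes called with the length trend removed is not given here. The part of gene length in the differences was not tested further.

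The genes called with TGF-β1 were mostly ADAMTS and ADAM genes, with Mmp12 and Mmp13. Adam33, Adam8 and Adam22 were called both here and between Smad7-KO and control cells. In control cells it was followed by higher Adam10, Adam12, Adamts6, Adamts8 and Adamts10 and by lower Mmp12, Mmp13, Adamts1, Adamts5 and Adam33. These were 10 of 49 genes (20.4%, with 5 higher and 5 lower), against 8.37% of all tested genes (5.04% higher and 3.33% lower). After infection with the Cre virus, 13 of 49 were called (26.5%, with 6 higher and 7 lower), against 10.2% of all tested genes (5.33% higher and 4.9% lower). The medians over the 49 genes were 0.03 and -0.03, and over all tested genes -0.03 and -0.01. The 2 comparisons share no library, but they too share the estimate of spread. All 10 genes called in control cells were also called in Smad7-KO cells (100% of 10 and 76.9% of 13), 9 of them in the same direction, and Adam33 in the opposite one. The matching share over all tested genes is not given here. By family, 5 of 13 ADAMTS genes, 3 of 16 ADAM genes and 2 of 17 Mmp genes were called in control cells, and 6, 5 and 2 in Smad7-KO cells. When edgeR was fitted to the control libraries alone, the calls of Mmp13, Adamts5 and Adam12 were kept. Those of Mmp12, Adamts1, Adamts6, Adamts8, Adamts10, Adam10 and Adam33 were lost. Without unstimulated control replicate 3, 17 genes were called in control cells (11 higher and 6 lower). The share of all tested genes called in that setting is not given here.

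Mmp13 was at 15.2, 21.0 and 17.3 CPM in unstimulated control and 3.84, 2.97 and 3.94 CPM in TGF-β1 control libraries, and at 16.5, 17.9 and 16.9 CPM and 3.47, 3.94 and 3.59 CPM in Smad7-KO libraries. Its log2 fold changes in control and Smad7-KO cells were -2.31 (SE 0.16, adjusted p = 4.74e-06) and -2.22 (SE 0.16, adjusted p = 4.79e-06), with a difference between them of 0.09 (95% interval -0.38 to 0.57). Mmp12 fell from 117, 148 and 136 CPM to 75.9, 87.5 and 74.1 CPM in control libraries (log2 fold change -0.75, SE 0.11, adjusted p = 0.00117). In Smad7-KO libraries it fell from 118, 116 and 127 CPM to 68.1, 63.7 and 60.1 CPM (log2 fold change -0.91, SE 0.11, adjusted p = 0.000258). No stimulated library of these genes reached an unstimulated one.

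The proteoglycanases split. Adamts5 (chr16:85858170-85901125), the main aggrecan-cleaving protease of mice, was at 588, 656 and 780 CPM in unstimulated control and 308, 277 and 263 CPM in TGF-β1 control libraries, and at 763, 610 and 616 CPM and 290, 289 and 249 CPM in Smad7-KO libraries. Its log2 fold changes were -1.26 (SE 0.14, adjusted p = 0.000132) and -1.26 (SE 0.14, adjusted p = 9.92e-05). Adamts1, which lies beside it (chr16:85793827-85803113), fell from 203, 162 and 289 CPM to 109, 87.7 and 92.1 CPM in control libraries (log2 fold change -1.18, SE 0.20, adjusted p = 0.00262) and by -1.26 in Smad7-KO libraries (SE 0.20, adjusted p = 0.00135). Adamts9 was called lower only in Smad7-KO cells, at -1.04 (SE 0.27, adjusted p = 0.0289, lost in 5 of 12 omissions), with -0.84 (adjusted p = 0.0895) in control cells, and the difference of the effects was -0.20 (95% interval -1.03 to 0.64). Adamts8 went the other way, from 0.941, 0.229 and 0.928 CPM to 3.36, 3.54 and 3.06 CPM in control libraries (log2 fold change 2.20, SE 0.42, adjusted p = 0.00576) and from 0.446, 0.386 and 0.868 CPM to 1.80, 3.17 and 2.55 CPM in Smad7-KO libraries (log2 fold change 2.12, SE 0.43, adjusted p = 0.00762).

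Both tested fibrillin-associated genes, Adamts6 and Adamts10, rose. Adamts6 was at 1.35, 0.400 and 3.00 CPM in unstimulated control and 10.3, 5.74 and 7.48 CPM in TGF-β1 control libraries (log2 fold change 2.26, SE 0.46, adjusted p = 0.00925, lost in 1 of 12 omissions), and at 3.17, 2.79 and 2.43 CPM and 11.6, 16.1 and 9.91 CPM in Smad7-KO libraries (log2 fold change 2.16, SE 0.44, adjusted p = 0.00771). Adamts10 went from 55.1, 41.2 and 69.7 CPM to 94.8, 88.8 and 91.1 CPM in control libraries (log2 fold change 0.73, SE 0.15, adjusted p = 0.0109) and by 0.74 in Smad7-KO libraries (SE 0.15, adjusted p = 0.00851). All stimulated libraries of both genes were above the unstimulated ones of their background. Adamts12, which like Adamts7 cleaves cartilage oligomeric matrix protein, was at 2.02, 0.629 and 6.83 CPM in unstimulated and 15.3, 7.24 and 11.8 CPM in TGF-β1 control libraries but was not called (log2 fold change 1.82, SE 0.57, adjusted p = 0.0797).

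Among the ADAM genes Adam12 (chr7:133883199-134232146), or meltrin alpha, rose from 2.20, 1.26 and 2.49 CPM to 10.9, 6.39 and 10.1 CPM in control libraries (log2 fold change 2.18, SE 0.29, adjusted p = 0.000593). In Smad7-KO libraries it rose from 2.92, 2.36 and 3.82 CPM to 17.2, 19.3 and 13.1 CPM (log2 fold change 2.44, SE 0.28, adjusted p = 0.000165), and both calls held in every alternative. Adam10, the sheddase of Notch and of several ErbB ligands, rose by 0.57 (SE 0.15, adjusted p = 0.0317, lost in 9 of 12 omissions) in control and by 0.59 (SE 0.15, adjusted p = 0.0235, lost in 5 of 12 omissions) in Smad7-KO cells. Its libraries were at 137, 125 and 187 CPM unstimulated and 243, 197 and 226 CPM with TGF-β1 in control cells. Adam8 fell by 0.42 on the log2 scale in Smad7-KO cells (SE 0.12, adjusted p = 0.044, lost in 8 of 12 omissions). Adam17 was not called, at 0.09 (95% interval -0.18 to 0.36) in control and -0.08 (-0.35 to 0.19) in Smad7-KO cells.

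No Timp gene was called with TGF-β1 when all libraries were used. In control cells the log2 fold change was 0.04 (95% interval -0.16 to 0.25) for Timp2, 0.03 (-0.57 to 0.63) for Timp1 and 0.63 (-0.39 to 1.64) for Timp3. Timp3 was called without unstimulated control replicate 3, at 1.34 (adjusted p = 0.0323), and was at 0.19 without replicate 2. Mmp2 and Mmp14 differed with TGF-β1 in control cells by 0.34 (SE 0.10, adjusted p = 0.0663) and 0.04 (SE 0.14, adjusted p = 0.906) and were not called. All 3 TGF-β1 control libraries of Mmp2 were above the 3 unstimulated ones.

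**Figure D4:**
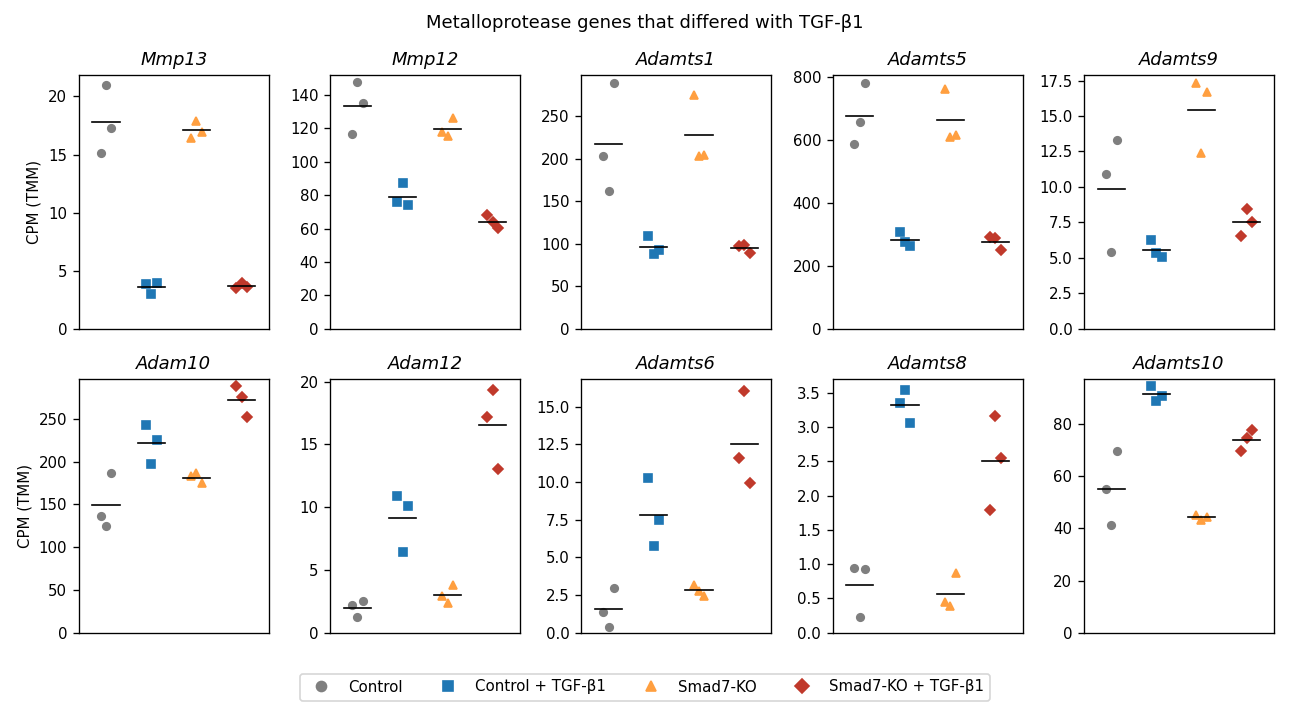
CPM of 10 genes called with TGF-β1 in control or Smad7-KO cells, 1 point for each library, a bar for the group mean and an axis from 0. Mmp13 falls to between 2.97 and 3.94 CPM in all 6 stimulated libraries, and Adam12, Adamts6 and Adamts8 are higher in every stimulated library than in the unstimulated libraries of the same background.

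With TGF-β1, 1 of 12 macrophage markers (8.33%) was called lower in each background. Of all tested genes 8.37% were called in control and 10.2% in Smad7-KO cells. Of 13 endothelial markers 1 was called lower in control cells, and 2 were called in Smad7-KO cells, with opposite signs. Of 12 fibroblast markers none was called in control cells and 1 was higher in Smad7-KO cells, while no mesothelial, smooth muscle or cardiomyocyte marker was called in either. In unstimulated control replicate 2, where Adamts6, Adamts8 and Adamts12 were lowest, fibroblast markers were lowest too, and the part of that in their fold changes was not tested.

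A test of the difference between the effects called none of the 49 genes at an adjusted p of 0.05, and 0.0198% of all tested genes (3 genes). At an unadjusted p under 0.05 it marked 2 of the 49, Adam33 and Adam22, and 2.59% of all tested genes. Whether 2 of 49 differs from that share was not tested. Adam33 (chr2:131050591-131063814), an ADAM protease of mesenchymal cells, was at 9.59, 13.1 and 12.9 CPM in unstimulated and 7.68, 7.65 and 8.11 CPM in stimulated control libraries. In Smad7-KO libraries it was at 5.05, 5.24 and 4.29 CPM unstimulated and 7.22, 8.05 and 8.07 CPM stimulated. Without stimulation Smad7-KO cells were thus lower by a log2 fold change of -1.29 (SE 0.15, adjusted p = 0.000316), a call kept in every alternative. With TGF-β1 the log2 fold change was -0.01 (95% interval -0.33 to 0.32). TGF-β1 itself lowered Adam33 in control cells (-0.60, SE 0.15, adjusted p = 0.0243) and raised it in Smad7-KO cells (0.68, SE 0.15, adjusted p = 0.0127), each lost in 3 of 12 omissions. The difference was 1.28 (95% interval 0.82 to 1.74, adjusted p = 0.204 by edgeR and 0.00027 by DESeq2 on all libraries).

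Adam22 was at 3.48, 3.25 and 4.37 CPM in stimulated control and 2.47, 3.80 and 2.88 CPM in stimulated Smad7-KO libraries. TGF-β1 lowered it in Smad7-KO cells by 1.51 on the log2 scale (SE 0.22, adjusted p = 0.000979), in every alternative, and the change in control cells was -0.51 (adjusted p = 0.229). The difference was -1.002 (95% interval -1.69 to -0.31, adjusted p = 0.98), so the interaction test did not separate the backgrounds after adjustment.

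Several of the genes above lie side by side. On chromosome 9, within 427 kilobases (GRCm38, chr9:7272514-7699585, in the coordinates of the deposited table), the 10 genes Mmp13, Mmp12, Mmp1b, Mmp3, Mmp1a, Mmp10, Mmp8, Mmp27, Mmp20 and Mmp7 follow each other, and 6 of them passed the filter. The 2 genes at one end, Mmp13 (chr9:7272514-7283333) and Mmp12 (chr9:7344381-7369499), were those that fell with TGF-β1 and were not called between Smad7-KO and control. The next 3 tested genes, Mmp3 (chr9:7445822-7455972), Mmp10 (chr9:7502352-7510238) and Mmp8 (chr9:7558429-7568486), rose in Smad7-KO cells and were not called with TGF-β1, with log2 fold changes in control cells of -0.24 (95% interval -0.71 to 0.24), 0.38 (-0.37 to 1.13) and -0.23 (-0.77 to 0.32). Mmp27, next to Mmp8, was not called in any comparison and had at most 59 reads in a library. Mmp12 and Mmp1b overlap on opposite strands, with 26336 and 22 reads over the 12 libraries.

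**Figure D5:**
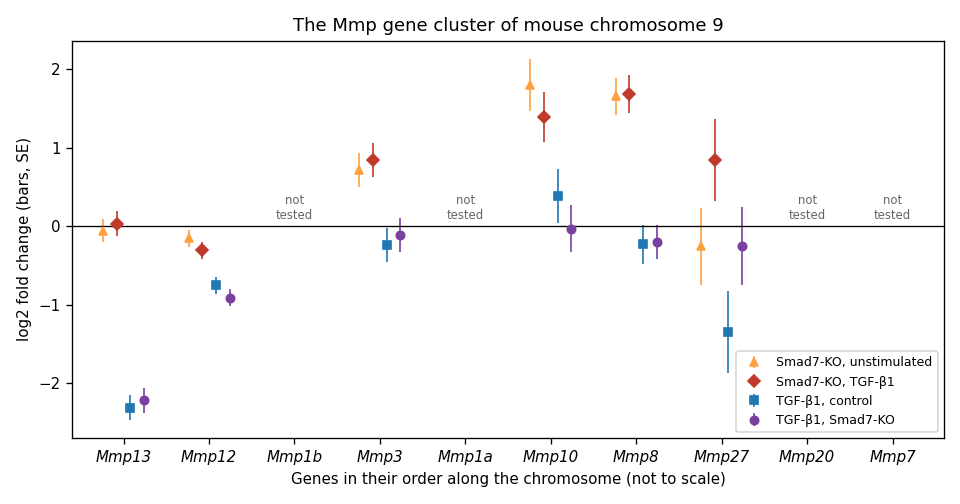
Log2 fold change (bars, SE) in the 4 comparisons for the 10 Mmp genes of chromosome 9 in their order along the chromosome, not to scale. The Smad7-KO points of Mmp3, Mmp10 and Mmp8 lie above 0 (0.72 to 1.80), the TGF-β1 points of Mmp13 and Mmp12 lie below 0 (-2.31 to -0.75), and 4 genes were not tested.

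The promoters of these 5 genes are shown because the genes are neighbours of one family and split into a pair that TGF-β1 lowered and a trio that was higher in Smad7-KO cells. Each line gives the 120 bases before a start site of the gene, from RefSeq (GRCm38.p6, plus strand), with TGANTCA, the letters of an AP-1 element, in capitals. The windows are chr9:7272394-7272513 for Mmp13, chr9:7344277-7344396 for Mmp12 at the start nearest to that of the deposited table and chr9:7347254-7347373 at its second RefSeq start, which lies inside the gene, chr9:7445702-7445821 for Mmp3, chr9:7502222-7502341 for Mmp10 and chr9:7558309-7558428 for Mmp8.
Mmp13: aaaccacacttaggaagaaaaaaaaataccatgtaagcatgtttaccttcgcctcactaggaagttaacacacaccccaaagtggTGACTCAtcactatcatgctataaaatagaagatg
Mmp12: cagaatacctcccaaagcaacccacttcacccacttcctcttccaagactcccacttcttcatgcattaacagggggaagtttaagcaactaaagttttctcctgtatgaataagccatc
Mmp12, second start: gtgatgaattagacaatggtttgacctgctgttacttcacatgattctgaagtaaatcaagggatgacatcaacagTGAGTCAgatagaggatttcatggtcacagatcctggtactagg
Mmp3: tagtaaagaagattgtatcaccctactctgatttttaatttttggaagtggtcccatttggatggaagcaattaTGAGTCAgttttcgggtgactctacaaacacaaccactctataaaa
Mmp10: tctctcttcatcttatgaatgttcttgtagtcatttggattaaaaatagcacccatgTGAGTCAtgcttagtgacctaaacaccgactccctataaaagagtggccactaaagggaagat
Mmp8: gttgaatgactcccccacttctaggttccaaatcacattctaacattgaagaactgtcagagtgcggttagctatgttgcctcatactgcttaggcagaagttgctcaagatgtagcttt

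The AP-1 letters begin 35 bases before the start in Mmp13, 46 in Mmp3 and 63 in Mmp10, and they are not in the 250 bases before the start of Mmp8. In Mmp12 they are not in the 250 bases before the start nearest to the deposited one, and they begin 44 bases before the second start. TATAAA, read on the gene's strand, begins 16 bases before the start in Mmp13, 7 in Mmp3 and 29 in Mmp10. RefSeq windows were found for 49 of the 79 genes, and the window nearest to the deposited start was used for each. In the 250 bases before that start, TGANTCA (the same letters on both strands) is present in 7 of the 10 cluster genes (70%), 11 of the 49 genes (22.4%) and 6.75% of all 32851 RefSeq windows. TATAAA is in 7 of the 10, 10 of the 49 (20.4%) and 7.59% of all windows. CAGACA, the letters of a Smad-binding element, searched on both strands, is in 4 of the 10 (40%), 8 of the 49 (16.3%) and 17.1% of all windows. The 49 genes include the 10 of the cluster. Counted by gene, over any window of a gene, TGANTCA is in 7.82%, TATAAA in 8.94% and CAGACA in 19.3% of 27025 genes. A match of letters is not a measured binding site.

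Genes around these proteases were read from a list of 41 genes, of which 35 were tested. It holds convertases, inhibitors, partners of Adam17, plasminogen activators, ADAMTS-like proteins and other matrix proteases (astacins, serine proteases and cathepsins). In Smad7-KO cells 3 of them rose and 12 fell without stimulation (42.9% of 35, against 25.8% of all tested genes), and 2 rose and 11 fell with TGF-β1 (37.1%, against 13%), with a median log2 fold change over the 35 of -0.40 and -0.35. TGF-β1 raised 5 and lowered 1 in control cells (17.1%, against 8.37% of all tested genes) and raised 6 and lowered 2 in Smad7-KO cells (22.9%, against 10.2%). Among inhibitors, Reck, a membrane-anchored inhibitor of Mmp2, Mmp9 and Mmp14, fell in Smad7-KO cells by 0.61 (SE 0.14, adjusted p = 0.0117) and 0.82 (SE 0.14, adjusted p = 0.00365) on the log2 scale without and with TGF-β1. A2m, which traps proteases of all classes, fell by 1.76 (SE 0.47, adjusted p = 0.0227) and 1.73 (SE 0.44, adjusted p = 0.0256).

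Of 3 partners of Adam17, Rhbdf2 and Rhbdf1 moved in opposite directions in Smad7-KO cells and Frmd8 was not called, at 0.23 (adjusted p = 0.177) and 0.10 (adjusted p = 0.607). Rhbdf2, an inactive rhomboid that carries Adam17 to the cell surface, was higher in Smad7-KO cells by 0.64 (SE 0.14, adjusted p = 0.009) without and 0.62 (SE 0.14, adjusted p = 0.0139) with TGF-β1, and its relative Rhbdf1 was lower, at -0.41 (SE 0.10, adjusted p = 0.0196) and -0.43 (SE 0.10, adjusted p = 0.0198). TGF-β1 raised both, Rhbdf2 by 0.62 and 0.59 and Rhbdf1 by 0.63 and 0.61 in control and Smad7-KO cells. Furin, the convertase that removes the propeptide of ADAM proteases and membrane-type Mmp enzymes, was higher with TGF-β1 by 1.07 (SE 0.21, adjusted p = 0.00646) in control and 0.89 (SE 0.21, adjusted p = 0.0163) in Smad7-KO cells, and higher in unstimulated Smad7-KO cells by 0.66 (SE 0.21, adjusted p = 0.0396). Pcsk5, another convertase, was lower in Smad7-KO cells, at a log2 fold change of -1.04 under both stimulations (adjusted p = 0.00118 and 0.00153).

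Of the 11 other matrix proteases tested, 3 were called lower and 1 higher in unstimulated Smad7-KO cells, and 4 lower and 1 higher with TGF-β1. Of all tested genes, 13.7% were called lower and 12.1% higher without TGF-β1, and 7.23% lower and 5.72% higher with it. The astacin protease Tll1, which processes procollagens, differed between Smad7-KO and control cells by -1.45 (SE 0.26, adjusted p = 0.00385) and -1.56 (SE 0.25, adjusted p = 0.00259), Prss23 by -1.55 and -1.34, and Htra1 by -0.71 and -0.54, all past the threshold. Dpp4 was at -0.39 (adjusted p = 0.203) without and -0.95 (adjusted p = 0.0251) with TGF-β1. Bmp1, a relative of Tll1, was not called, at -0.03 and -0.04, nor were Fap, Htra3, Ctsk, Ctsl and Ctss. The cathepsin gene Ctsb rose by 0.78 (SE 0.10, adjusted p = 0.000682) and 0.83 (SE 0.10, adjusted p = 0.000672). Adamtsl2, an ADAMTS-like protein without a protease domain that binds fibrillin and latent TGF-β complexes, was lower in unstimulated Smad7-KO cells, at -1.55 (SE 0.12, adjusted p = 1.74e-05) and higher with TGF-β1 by 2.21 in control and 3.20 in Smad7-KO cells (adjusted p = 1.39e-06 and 6.72e-08). The difference between its TGF-β1 effects was 1.00 (SE 0.16, adjusted p = 0.204) and was not called.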

How the data were processed

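RNA-Seq libraries (NEBNext Ultra kit, Illumina paired-end reads) were made from 4 groups of 3 cultures. The authors deposited raw read counts per gene and FPKM values, and each FPKM value equals its count scaled by gene length and by library total, for all 35275 genes (relative tolerance 1e-06). The submitters' processing notes name CASAVA, TopHat2 2.0, Cufflinks 2.1.1, HTSeq 0.6.1, mm10 and GRCm38.p6, without roles. Strand use and pooling of hearts are not given in the sources used here. All columns were mapped to samples, and 0 were without one.

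Counts of all 12 libraries were fitted with edgeR 4.0.16 in R 4.3.3 (filterByExpr, minimum count 10, TMM, robust quasi-likelihood test), with Benjamini-Hochberg adjustment over all 15150 tested genes and a threshold of 0.05. Standard errors were derived from the F statistic, and intervals are 95% intervals. CPM values are TMM-scaled, and levels between genes are compared in FPKM only. The study used DESeq2, which was run here as an alternative (1.42.0). Further alternatives were each comparison's own libraries alone, DESeq2 size factors in edgeR, no filter, limma 3.58.1 on log2(FPKM + 1), a loess correction for gene length (span 0.3), the replicate number as a block, and omission of each library in turn. The procedure was tested on simulated data drawn with the same spread in all groups, so unequal spread between groups was not covered. With 3 libraries in each group, an exact permutation test of a single gene cannot go below 0.1 and was not used. If the 3 libraries of a group shared a heart or culture, p-values measure technical spread.

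The text names the Timp genes, the Mmp genes that passed, the 5 Adam and 5 Adamts genes highest in FPKM, the 5 of each with the largest called changes and genes of the study's PCR arrays. The members, lists and tests were chosen with earlier results of these data known. Motif searches were added after the data were seen. Promoter sequences are from RefSeq (GRCm38.p6), and the 54 windows of these genes all lie in or within 5 kb of the deposited gene.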

Additional observations from a re-analysis of the deposited data

Results flagged for a closer look

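Adam33 stood out because TGF-β1 moved it in opposite directions in control and Smad7-KO cells, with no overlap between stimulated and unstimulated libraries in either. The difference of the effects was 1.28 on the log2 scale, higher in Smad7-KO cells. It was tested by the interaction term, with an adjusted p of 0.204 by edgeR and 0.00027 by DESeq2 on all libraries, and 0.0584 by edgeR with the length trend removed. Without unstimulated control replicate 2 or 3 it was 1.22 and 1.21 (adjusted p = 0.152 and 0.192). The fibroblast markers' sums overlapped between all 4 groups, from 14209 to 23160 CPM, and their part in this difference was not tested. With 3 libraries in a group, single libraries were not examined for outliers.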

How the results depend on the processing

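The counts of called genes below each moved by over 1.5 times, or from 0, in at least 1 setting. Their full range with a library left out is given as well, also where it moved less. They are counts of the metalloprotease and Timp genes alone, without the share of all tested genes in the same setting. Smad7-KO against control in unstimulated cells gave 13, with 6 from edgeR on its own libraries and 8 to 24 with a library left out. With TGF-β1 it gave 9, with 14 from DESeq2 on all libraries, 19 from DESeq2 and 21 from edgeR on its own libraries, 17 with the length trend removed, and 4 to 20 with a library left out. TGF-β1 in control cells gave 10, with 3 from edgeR on its own libraries, 17 with the length trend removed, and 8 to 17 with a library left out. In Smad7-KO cells it gave 13, with 23 from DESeq2 and 24 from edgeR on its own libraries, and 9 to 17 with a library left out. The interaction gave 0, with 1 from DESeq2 (Adam33) and 0 in every omission. The causes were not tested, but a fit of 6 libraries uses the spread of its own groups, which was largest in unstimulated control. Over all named genes and comparisons, omissions of a library ended 87 calls and added 38, the other settings ended 32 and added 76, and no called direction was reversed.

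With the replicate number as a block (replicate block), 13, 9, 10, 13 and 0 genes were called in the order above. Correlations of same-numbered libraries' deviations ran from -0.176 to 0.487 and were not above 0.1 in all pairs of any comparison, and libraries did not all correlate best with their own number, so the numbers were not taken as pairs. Genes with 14 or fewer reads in every library give counts too low for a firm comparison.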
